A study of Solanum tuberosum with 9 samples.

Results

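A set of 43 potato gene models stood lower in tubers fumigated with rosemary essential oil (REO) than in every control library, out of 34239 gene models measured. The members were chosen by their CPM (a gene's count as a share of its library's total, scaled to 1000000). In each, the lowest of the 6 control libraries was at least 125% of the highest of the 3 REO libraries, and the 6 controls averaged at least 5 CPM. Models whose day 0 libraries all lay at least 1.5 times above every day 40 library were removed. The rule was applied to the 32917 models with a Soltu.DM identifier, of which 13615 had the control level it asks for, and these 13615 are the reference set below. All 9 libraries entered the rule, so the lower level with REO is how the set was made and its size is given as a description.

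The tissue was mature tuber of the cultivar Keshan, bought commercially and stored in a sealed environment. Messenger RNA was sequenced from 9 libraries in 3 equal groups: untreated tubers on day 0 (control day 0), untreated tubers on day 40 (control day 40), and tubers fumigated with REO from the start of storage and sampled on day 40. There was no fumigated group at day 0, and the sources used here do not say how many tubers stand behind a library. The p-values therefore measure only the spread between these libraries.

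A stored potato tuber is a dormant stem organ that lives on its starch until its buds resume growth. Abscisic acid is known for keeping the buds dormant, and cytokinins and gibberellins for their release and outgrowth. Rosemary oil is a mixture of volatile monoterpenes, a class of plant compounds of which some, such as carvone from caraway, are used as vapours to hold back sprouting. The files and the reference gene table do not pair the identifiers with names (0 matched), so no role can be given to a member, and tuber markers could not be checked against the tissue label.

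Library totals ranged from 29330673 to 36901701 counts, and no member had under 13 counts in any library. Replicate 2 of the day 40 controls stood apart from its group by a chi-square test of counts over genes above a low-count limit. It gave 188 and 166 per degree of freedom against replicates 1 and 3, which gave 36.4 between them. Day 0 replicate 3 did so to a lesser degree, with 94.1 and 142 against replicates 1 and 2, which gave 39.4 between them. In the REO group replicate 1 gave 68.7 and 131 against replicates 2 and 3, which gave 50.1 between them. Without day 40 control replicate 2 the rule chose 69 models, among them 42 of the 43. Without day 0 replicate 3 it chose 55, among them 40. The ratio condition is easier to meet with fewer libraries, so most members stay by the rule. On the plain CPM scale the median reference model stood at 108.2% of its day 0 level in day 40 controls, and with REO at 93.8% of its day 40 control level.

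With REO the 43 members had a median of 47.3% of their day 40 control mean and 40.4% of their day 0 mean. Between members the share of the day 40 control mean ran from 4.72%, in a member where 1 control library sets that mean, and otherwise from 19.9%, to 74.1%. Summed over the 43, the level was 2748 ± 139 CPM (SD, n = 3) at day 0, 2424 ± 120 CPM in day 40 controls and 1250 ± 62.6 CPM after fumigation. By library the sums were 2682, 2655 and 2908 CPM at day 0, then 2332, 2380 and 2560 CPM in day 40 controls, and 1212, 1217 and 1323 CPM with REO. The highest REO sum lay far below the lowest control sum, and the day 40 control sums lay below those of day 0. In bulk tissue, fewer cells of a type and less RNA per cell cannot be told apart.

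**Figure D1:**
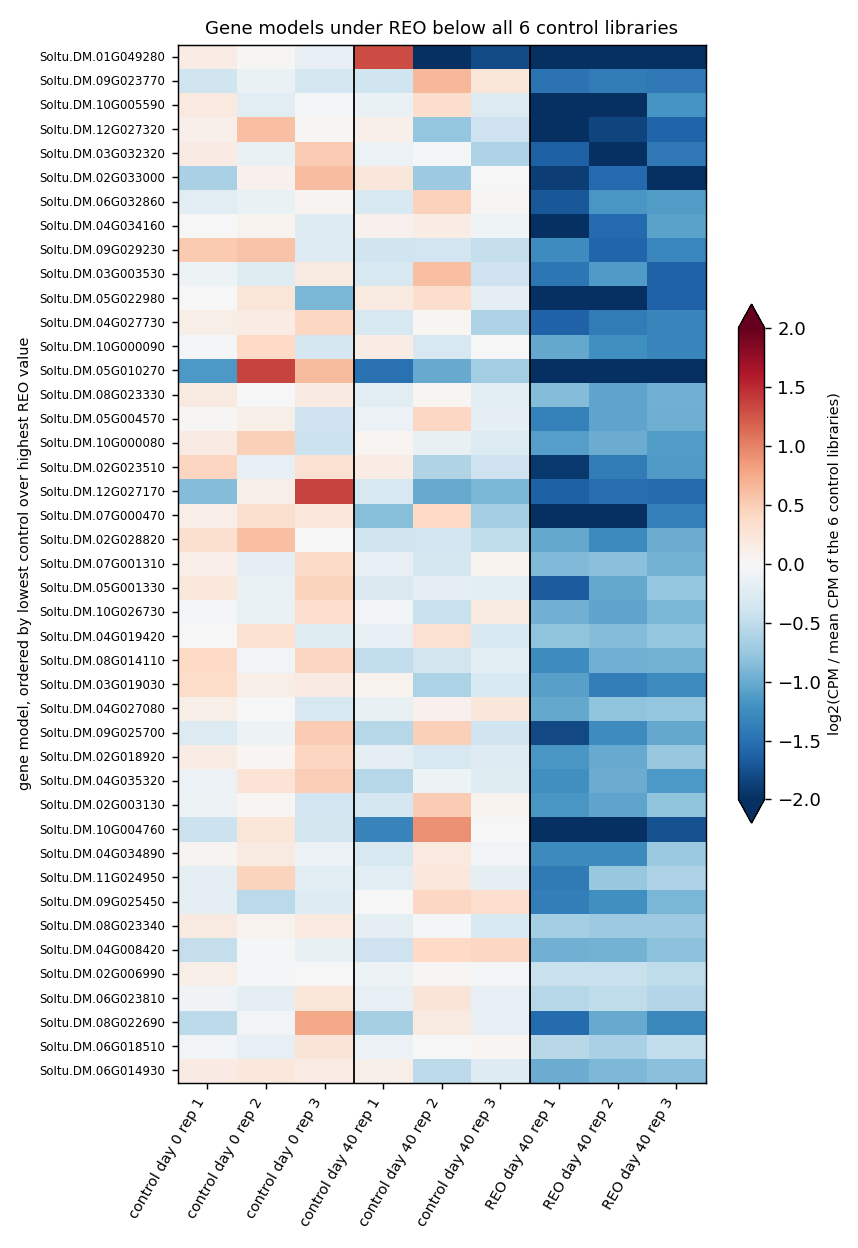
Level of each of the 43 gene models (rows) in each of the 9 libraries (columns), as the log2 ratio of its CPM to its mean over the 6 control libraries; colours stop at 2 in either direction. The REO columns are below every control column in all rows, by the rule. The REO mean ran from 4.72% of the day 40 control mean in the top row (18.2% without its 1 high day 40 control) to 74.1%. These shares are not what the colours show, which are relative to all 6 controls.

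The size of the difference varied among the members. Against the day 40 control mean, 20 members were lower by under 2-fold, 20 by 2 to 4-fold, 2 by 4 to 8-fold and 1, Soltu.DM.01G049280, by over 8-fold, which rests on 1 high control library. Of the 2 at 4 to 8-fold, Soltu.DM.10G004760, named after its values were seen, also had widely spread day 40 controls. They were at 9.46, 45 and 23.9 CPM, with replicate 2 the highest, and its difference did not pass (edgeR adjusted p = 0.106). The gap between the groups was narrower still. The ratio of the lowest control to the highest REO library had a median of 1.40 and reached 2 in 2 members, lay between 1.5 and 2 in 13 and between the threshold and 1.5 in 28. Below the threshold the models thickened fast, with 97 at a ratio from 1.1 up to the threshold and 228 at 1 to 1.1. Before the removal of models high at day 0, 374 of the 13615 reference models (2.75%) lay below all controls in every REO library. The opposite gap, with the lowest REO library at least 125% of the highest control, was found in 128 reference models (0.94%), against 46 lower models before that removal and 43 after it (0.316%). The control level of 5 CPM was asked in both directions, so models low in controls and high with REO are not among the 128. The counts are therefore not read as a difference between the directions.

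The 2 members just inside the threshold were Soltu.DM.06G014930 and Soltu.DM.06G018510. Soltu.DM.06G014930 was at 81.3 CPM in its lowest control and 64.9 CPM in its highest REO library, and Soltu.DM.06G018510 at 8.67 and 6.89 CPM. Just outside were Soltu.DM.05G027200, at 8.56 and 6.85 CPM, and Soltu.DM.01G039150, at 3.96 and 3.17 CPM. Members and non-members were therefore not separated by a break in the values.

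**Figure D2:**
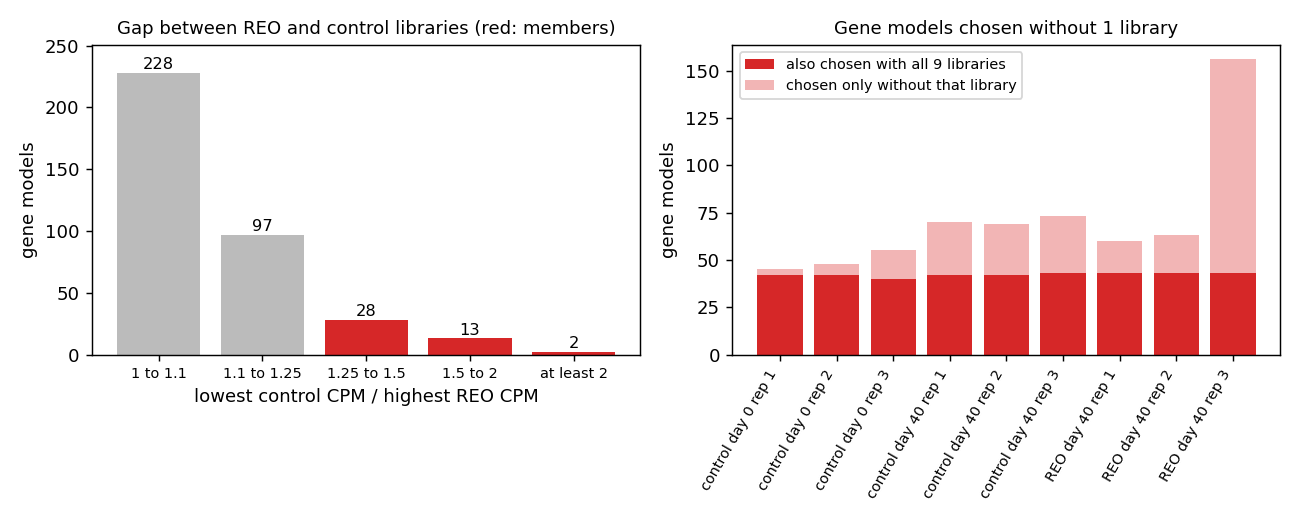
Left, number of gene models by the ratio of their lowest control CPM to their highest REO CPM, every other condition of the rule being met; the 3 red bars (28, 13 and 2) are the 43 members. Right, number of models chosen when 1 library is left out. The dark part (40 to 43) are members of the full set, which cannot fail the ratio when a library is removed. Without REO replicate 3 the total reached 156.

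The library that fixed a member's place was most often REO replicate 3. It had the highest REO value in 27 of the 43 members (62.8%), and in 44.5% of the reference models. Replicates 1 and 2 had it in 6 and 10 members. As a share of each member's own control mean, the medians were 39.1%, 44.8% and 47.7% in REO replicates 1, 2 and 3. The lowest control was a day 40 library in 32 members (74.4%) and in 41.9% of the reference models. Leaving out 1 library kept 40 to 43 of the members, and 36 were kept whichever library was left out. Removing a library can never lower the lowest control or raise the highest REO value, so no member can fail the ratio. Members can be lost only through the 5 CPM level or the removal of models high at day 0. The numbers kept therefore do not measure how stable the set is. The number chosen rose to 156 without REO replicate 3, to 70, 69 and 73 without day 40 control replicates 1, 2 and 3, and to between 45 and 63 without any of the other 5 libraries. With fewer libraries the ratio can only become easier to meet, so a rise is built into the rule and only its size differs.

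Of the 43 members, 5 fell against day 40 controls by edgeR's quasi-likelihood test (adjusted p under 0.05, Benjamini-Hochberg over the 22638 models tested), where 8 of all models (0.0353%) did. DESeq2 called 28 of the 42 members for which it gave an adjusted p, and 0.587% of all models as lower. Against day 0 controls edgeR called 33 members lower and 1.22% of all models, and DESeq2 called 42 members and 4.95% of all models. Both contrasts were used in choosing the members, so these counts describe the set and lend it no support. All 43 passed the filter on low counts.

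The 5 called members had mean levels of 13.8 to 132 CPM at day 0. Soltu.DM.09G023770, on chromosome 9 by its identifier, was at 122, 147 and 126 CPM at day 0, at 122, 255 and 190 CPM in day 40 controls and at 57.8, 60.8 and 59.8 CPM with REO. Its 3 REO libraries were nearly level while the day 40 controls spread widely above them. Against day 40 controls its log2 fold change was -1.60 ± 0.23 (SE). It was also the only member besides Soltu.DM.01G049280 whose lowest control was at least 2 times its highest REO library.

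Soltu.DM.05G022980, on chromosome 5, was at 36.9, 43.7 and 19.5 CPM at day 0, at 41.7, 46.9 and 32.7 CPM in day 40 controls and at 5.52, 6.58 and 12 CPM with REO. The 2 control groups overlapped, and day 0 replicate 3 came nearest to the REO libraries, of which replicate 3 was the highest. The log2 fold change against day 40 controls was -2.27 ± 0.32 (SE), the largest fall among the 5.

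Soltu.DM.09G025450, on chromosome 9, was the only member in which all day 40 controls lay above all day 0 libraries. It was at 55.9, 44.3 and 53.7 CPM at day 0, at 63.8, 85.7 and 81.2 CPM in day 40 controls and at 24.5, 27.5 and 33.9 CPM with REO. The fumigated tubers thus lay below the starting level, while untreated tubers lay above it. The log2 fold change was -1.37 ± 0.18 (SE) against day 40 controls and -0.91 ± 0.18 against day 0. Its higher level in day 40 controls did not pass the test (log2 difference 0.45, edgeR adjusted p = 0.23, and 0.129 to 0.415 over 16 alternatives).

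Soltu.DM.06G032860, on chromosome 6, was at 36.6, 38.9 and 44.2 CPM at day 0, at 34.4, 58.5 and 43.4 CPM in day 40 controls and at 13.2, 19.1 and 19.6 CPM with REO; its log2 fold change was -1.33 ± 0.22 (SE) at day 40. Soltu.DM.05G004570, on chromosome 5, was at 14.7, 15.7 and 10.9 CPM at day 0, at 13.3, 19.3 and 12.8 CPM in day 40 controls and at 5.66, 6.97 and 7.39 CPM with REO; its log2 fold change was -1.12 ± 0.18 (SE). In both, the 2 control groups overlapped and their means differed little. The call of each of the 5 was lost under some alternatives, and 4, 7, 9, 10 and 11 of the 16 kept it for Soltu.DM.05G004570, Soltu.DM.06G032860, Soltu.DM.09G023770, Soltu.DM.05G022980 and Soltu.DM.09G025450. None of the 5 was called without REO replicate 1 or 2, day 40 control replicate 3 or day 0 replicate 1.

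**Figure D3:**
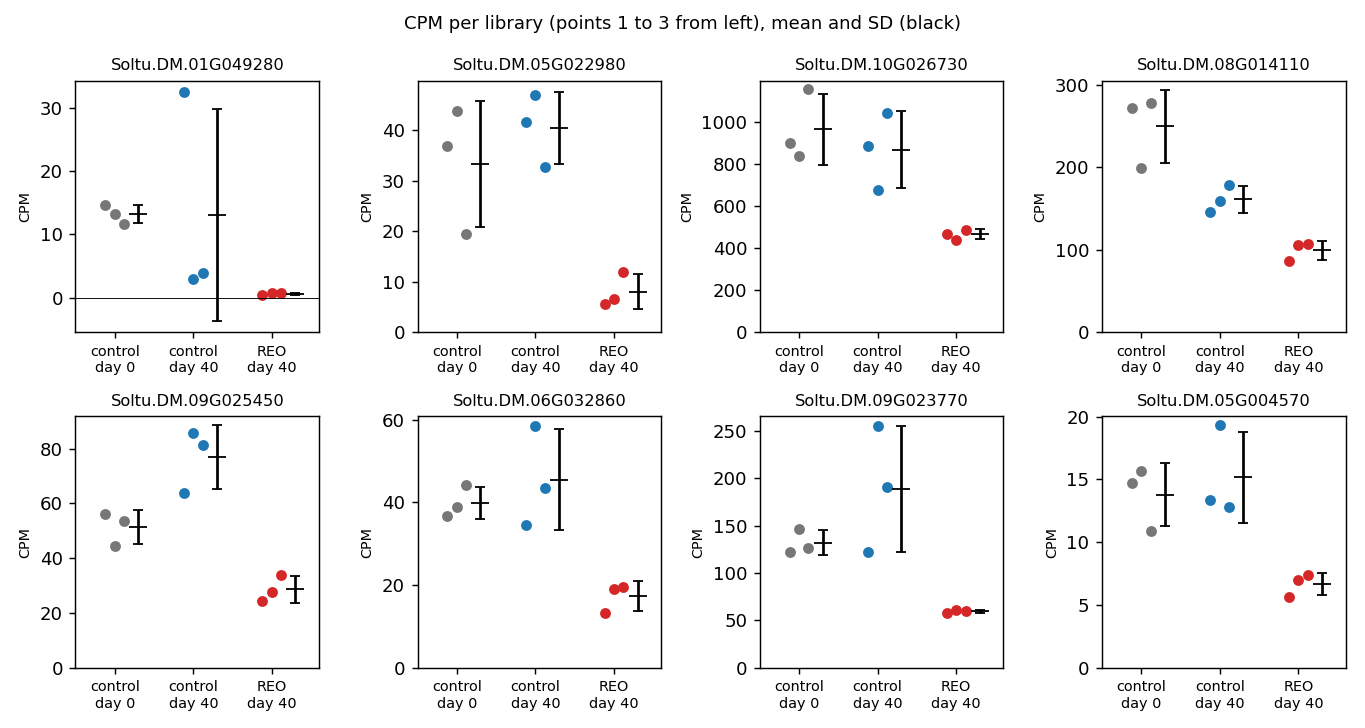
CPM in each library (points, replicates 1 to 3 from left to right) of 8 members, with the group mean and SD (n = 3) in black: the 5 called lower against day 40 controls, the 2 most abundant and Soltu.DM.01G049280. REO points lie below all control points in every panel, and 1 day 40 control of Soltu.DM.01G049280 stands at 32.4 CPM against 2.98 and 3.81 CPM in the others.

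The largest difference belonged to Soltu.DM.01G049280, the only member on chromosome 1. It was at 14.6, 13.3 and 11.7 CPM at day 0, at 32.4, 2.98 and 3.81 CPM in day 40 controls and at 0.443, 0.759 and 0.649 CPM with REO. The day 40 controls spanned more than the whole range of day 0, with replicate 1 far above the other two, and this was the only member under 1 CPM in every REO library. Its log2 difference of -4.35 ± 0.92 (SE) against day 40 controls did not pass (edgeR adjusted p = 0.106, and 0.0184 to 0.45 over the alternatives with a value), and DESeq2 gave no adjusted p for it. Its day 40 control mean of 13.1 ± 16.8 CPM (SD, n = 3) rests on replicate 1. Without that library the mean was 3.39 CPM, the REO level was 18.2% of it in place of 4.72%, and the log2 fold change of -2.38 passed (edgeR adjusted p = 0.0184). The difference also passed without day 40 control replicate 2, at -4.81 (edgeR adjusted p = 0.03).

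The members covered the common range of expression. In 10 the control mean was 5 to 10 CPM, in 27 it was 10 to 100 CPM and in 6 at least 100 CPM, where the reference set held 2826, 8934 and 1855 models. Per length, on the scale of the second deposited table (FPKM), the median control level was 15.1 FPKM in the members and 13.8 FPKM in the reference set. With REO the members' median was 7.04 FPKM and that of the reference set 13.2 FPKM.

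The most abundant member, Soltu.DM.10G026730 on chromosome 10, held 35.5% of the summed control level of the set. It was at 899, 840 and 1160 CPM at day 0, at 888, 677 and 1044 CPM in day 40 controls and at 470, 441 and 489 CPM with REO, and at 832 FPKM on average over the controls. The REO libraries lay close together and, by the rule, below the lowest control, and the control groups overlapped. Its log2 difference against day 40 controls was -0.85 ± 0.25 (SE). That difference did not pass (edgeR adjusted p = 0.294, and 0.037 to 0.938 over 16 alternatives, of which 1 passed). Without it the summed level of the other 42 was 1782 ± 33.3 CPM (SD, n = 3) at day 0, 1554 ± 134 CPM in day 40 controls and 783.8 ± 46.6 CPM with REO, so the sum followed the same order.

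Soltu.DM.08G014110 on chromosome 8 came next, with 272, 199 and 279 CPM at day 0, 146, 160 and 179 CPM in day 40 controls and 86.2, 106 and 107 CPM with REO. Here the groups formed 3 separate steps, with the day 40 controls between day 0 and REO. Its log2 difference was -0.64 ± 0.20 (SE) for REO against day 40 controls, and -0.76 ± 0.20 between control day 40 and day 0. Neither passed, with an edgeR adjusted p of 0.337 for REO against day 40 controls and 0.108 between the control groups. Over the alternatives the adjusted p ran from 0.0925 to 0.859 for the first and from 0.00953 to 0.272 for the second.

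Levels in the untreated tubers show how the members stood in storage without REO. Many were also lower at day 40 than at day 0 there. In control tubers the log2 difference between day 40 and day 0 was negative in 34 members (79.1%) and in 50.2% of the reference models, with medians of -0.33 and 0.00. On the plain CPM scale 31 had a lower mean at day 40 and 12 a higher one. All day 40 controls lay below all day 0 libraries in 9 members, where 7.9% of the reference models did so. The opposite held in 1 member, where 15.6% of the reference models did so. In the other 33 the control groups overlapped. The removal of models high at day 0 limits how far a member could be lower in storage, and the rule used these same control libraries, so the counts describe the set and were not tested.

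The 9 stepwise members had a median day 40 control level of 71.7% of day 0 (59.2% to 80.5%) and a REO level of 60.9% of the day 40 control (44.7% to 68.3%). In the 33 members with overlapping controls the corresponding medians were 95.0% and 45.1%. The day 40 control mean is divided by day 0 in the first share and divides REO in the second. The opposite order of these medians is therefore partly built in and is not read as a difference between the classes. By edgeR, 1 member fell in storage without REO, where 0.57% of all models did, and 0 rose, where 0.274% did. At an unadjusted edgeR p under 0.05 there were 13 lower and 1 higher, where 9.34% and 9.04% of all models were. DESeq2 called 6 lower and 0 higher, where it called 4.07% and 3.33% of all models.

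The member called in storage was Soltu.DM.02G028820 on chromosome 2, which was named after its values were seen. It was at 90.1, 109.7 and 72.3 CPM at day 0, at 55.1, 55.1 and 50.9 CPM in day 40 controls and at 35.5, 30 and 36.3 CPM with REO. It stepped down in storage and, as the rule requires, stood lower again with REO. The log2 difference of REO against day 40 controls, -0.60 ± 0.14 (SE), did not pass (edgeR adjusted p = 0.155), and 1 of 16 alternatives passed. The storage log2 fold change was -0.86 ± 0.14 (SE, edgeR adjusted p = 0.0337), and 4 of 16 alternatives kept the call, with adjusted p of 8.51e-07 to 0.113. The call was lost without any 1 of the libraries other than day 40 control replicate 2.

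The largest storage differences downward were in Soltu.DM.05G010270 and Soltu.DM.12G027170, and in both 1 or 2 day 0 libraries set them. Soltu.DM.05G010270 on chromosome 5 was at 6.97, 39.5 and 24 CPM at day 0, at 5.5, 7.7 and 9.6 CPM in day 40 controls and at 2.59, 2.98 and 3.52 CPM with REO. Soltu.DM.12G027170 on chromosome 12 was at 5.49, 10.8 and 25.4 CPM at day 0, at 7.97, 4.95 and 5.31 CPM in day 40 controls and at 3.2, 3.46 and 3.43 CPM with REO. Day 0 replicate 1 of each lay within the range of the day 40 controls. The storage log2 differences were -1.74 ± 0.51 and -1.36 ± 0.52 (SE) and did not pass (edgeR adjusted p = 0.138 and 0.213, with 0.0141 to 0.333 and 0.0906 to 0.574 over the alternatives).

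The largest storage differences upward were in Soltu.DM.09G025450 and Soltu.DM.09G023770, both among the 5 called members, at 0.45 ± 0.18 and 0.39 ± 0.22 (SE) on the log2 scale. Neither passed. The models removed for their high day 0 level were Soltu.DM.11G012480, Soltu.DM.06G011360 and Soltu.DM.02G022040, named after their values were seen. They went from 14.8, 14.1 and 13.3 CPM at day 0 to means of 2.14, 4.20 and 0.762 CPM in day 40 controls and 0.733, 2.35 and 0.111 CPM with REO. Most of their difference was already present without REO.

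**Figure D4:**
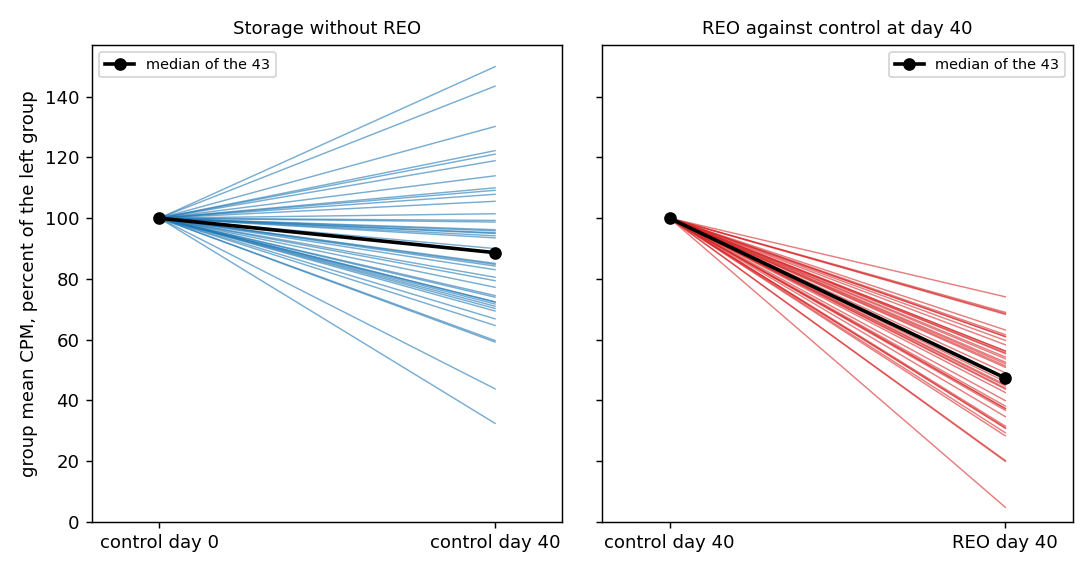
Group mean CPM of each of the 43 members (thin lines) and their median (black). Left, control day 40 as a percentage of control day 0, with 12 members above 100% and a median of 88.6%; right, REO day 40 as a percentage of control day 40, all below 100% by the rule, with a median of 47.3%.

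Replicates of the members varied about as much as those of other models at day 0, with a median coefficient of variation of 17.6% against 17.5% in the reference set. In day 40 controls it was 21.2% against 17.2%, and with REO 13.4% against 11.3%. In 8 members the REO libraries lay within a factor of 1.1 of each other (15.2% of the reference models did), and in 4 they spread over a factor of at least 2 (5.96%). The 6 controls spread over a factor of at least 2 in 18 members (41.4% of the reference models) and lay within a factor of 1.5 in 8 (22.3%). The lower edge of the controls is part of the rule, so these spreads are a description too.

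The members lay on all 12 chromosomes by the numbers in their identifiers. Chromosomes 4, 2 and 10 held the most, with 7, 6 and 5, which is 0.577%, 0.438% and 0.549% of the reference models there. Chromosomes 1 and 11 held 1 each, 0.0571% and 0.107%. The length scale of a model, from the ratio of its count to its FPKM, had a median of 1592 bases in the members and 1873 bases in the reference set, with quartiles of 1140 and 2252 against 1273 and 2604. None (0) of the 1322 models added by the submitters met the same conditions. The 1322 were counted without the level condition, and members made up 0.316% of the reference models, so the 0 is not read as a difference.

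In 2 places both of a pair of consecutive identifiers were members; these pairs were picked out after their values were seen. On chromosome 10, Soltu.DM.10G000080 was at 7.96, 9.83 and 5.24 CPM at day 0, at 7.29, 6.37 and 5.86 CPM in day 40 controls and at 3.31, 3.57 and 3.28 CPM with REO. Its neighbour Soltu.DM.10G000090 was at 53.8, 72.7 and 43.5 CPM, then 61.4, 44.3 and 55.8 CPM, and 27.1, 23.6 and 22.2 CPM with REO. In both, day 0 replicate 2 was the highest library and day 0 replicate 3 the lowest control. Per length their control means were close, 22.7 and 21.7 FPKM, on length scales of 311 and 2551 bases.

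On chromosome 8, Soltu.DM.08G023330 was at 15.1, 13.2 and 14.9 CPM at day 0, at 11.4, 13.7 and 11.5 CPM in day 40 controls and at 7.3, 6.38 and 6.83 CPM with REO. Its neighbour Soltu.DM.08G023340 was at 33, 30.7 and 33.5 CPM, then 26, 28.6 and 23.8 CPM, and 18.2, 17.7 and 17.6 CPM with REO. Control means per length were 29.7 and 22.3 FPKM. No strand-marking step is described, and whether neighbouring models overlap or share reads was not tested, so members of a pair may not be separate measurements.

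Among the other models next to a member in identifier order, 44 were in the reference set, and 35 of them (79.5%) were lower on the log2 scale with REO than in day 40 controls. In the reference set 56% were. The median difference of these neighbours was -0.16, against -0.03 in the reference set and -1.01 in the members. No test was made of this difference.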

How the data were processed

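The tables cover the same 9 libraries: the counts per gene model deposited by the authors, and their deposited normalised values, which were read here as FPKM from the values. Per the submitters' processing notes the tools were HISAT2 2.1.0 and DESeq2; the sources used here name no counting tool, genome build or annotation. The count 1 occurred 1998 times and the count 2 occurred 4901 times, so mates of a pair may each have been counted.

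Members and all levels use plain CPM. After filterByExpr, edgeR 4.0.16 (R 4.3.3) fitted 1 coefficient per group to all 9 libraries with TMM scaling, and 22638 models were adjusted together. SE was derived from the F statistic. Alternatives were DESeq2 1.42.0, limma 3.58.1 on log2(FPKM + 1) and log2(FPKM + 0.1), which understates changes of low genes, other scalings, no filter, a replicate block and each library left out. A chi-square test of counts found every replicate pair different (at least 36.4 per degree of freedom), so none was counted as the same library deposited again; this does not show that replicates came from separate tubers.

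The members, and the rules for naming models, were set with earlier results of these data known. Named are the extremes in REO difference, gap, level and storage difference, the models nearest the threshold and the members called against day 40 controls. Marker and pathway lists could not be used without gene names.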

Additional observations from a re-analysis of the deposited data

How the results depend on the processing

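The choice of members moved most with its own thresholds: 368 models at a ratio of 1, 15 at 1.5 and 2 at 2, and 81 with a minimum of 1 CPM. With 1 library left out the rule chose 45 to 156, where the ratio can only become easier to meet. TMM-scaled CPM gave 41 models, of which 36 were members, and FPKM ratios gave 46, of which 42 were. The members called against day 40 controls, 5 in edgeR, were 28 with DESeq2 and 0 to 8 with 1 library left out. Those called against day 0 controls, 33, were 2 to 37 with 1 library left out. The 1 member called lower in storage became 6 with DESeq2, 0 with library totals alone, 0 with limma at either pseudocount and 0 to 2 with 1 library left out; 0 members were called higher under any alternative. Same-numbered libraries deviated together at correlations of -0.546 to 0.292 across genes and so were not taken as pairs; with a replicate block, 1, 23 and 0 members were called lower in the 3 comparisons. Of 717 values of named models with an adjusted p under alternatives, 594 kept their side of the threshold, 108 lost a call and 15 gained one, and no call changed sign. With 3 libraries a group, no whole library was tested as an outlier. DESeq2 gave an adjusted p for 22495 of the 22638 models, and why the others had none was not tested. Apart from the easier ratio with fewer libraries, the cause of these shifts was not tested. Counting error weighs most on Soltu.DM.01G049280, with 13 counts in its lowest library.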
